A study of Mus musculus with 6 samples.

Results

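The MAP kinase phosphatases and the Sprouty proteins are the brakes that cells place on the MAP kinase pathways, and 9 of their genes are described here: Dusp1, Dusp2, Dusp4, Dusp5, Dusp6, Dusp10, Spry1, Spry2 and Spred1. They were taken by gene symbol from a list, and each of the 9 had a row among the 24047 rows of the deposited count table and among the 24043 rows of a deposited FPKM table. The libraries came from CD4 T cells of B6.129 mice at 7 weeks of age. One group of 3 carried Srsf1-flox/flox and dLck.Cre, a conditional knockout of the splicing factor gene Srsf1 (Srsf1-cKO), and the other group of 3 was labelled WT. Naive splenic cells of both groups were activated for 72 h with anti-CD3 (0.5 µg/mL) and anti-CD28 (1 µg/mL) and given PMA (100 ng/mL) with ionomycin (1 µM) for the last 4 h. The dLck.Cre transgene is driven by the distal Lck promoter, which is active in late thymocytes and mature T cells. The sources used here do not say whether WT mice carried a floxed allele or Cre.

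Signals from the T cell receptor reach the kinases ERK, JNK and p38, which carry an activating pair of phosphates on a threonine and a tyrosine. Dual-specificity phosphatases (DUSPs) remove both phosphates, and most of the genes described here are themselves switched on by MAP kinase activity, so that they form a negative feedback loop. Sprouty and Spred proteins act earlier, between receptors and the kinase Raf. PMA activates protein kinase C and the exchange factor RasGRP, and thereby Ras and ERK, without the receptor, and ionomycin raises calcium.

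The libraries held between 7781283 and 10184268 gene counts, and WT replicate 2 and WT replicate 3 were the most unlike replicates of a group (correlation of log2 CPM over the tested genes 0.958). Srsf1 itself, whose counts span the whole gene, had 523, 548 and 471 CPM (counts scaled to library size, with TMM scaling) in the libraries labelled Srsf1-cKO, against 540, 458 and 486 CPM in WT. The groups overlapped, and the log2 fold change of Srsf1 was 0.06 (SE 0.12, 95% confidence interval -0.23 to 0.34). A total over the whole gene does not show whether its floxed part was lost. Because this level was not lower, the groups are named by their labels, and fold changes are given as labelled Srsf1-cKO over WT. The T cell genes Cd3d, Cd3e, Cd4 and Lck were present in both groups, and the 8 T cell markers summed to between 2133 and 2887 CPM in the libraries labelled Srsf1-cKO and between 2493 and 2681 CPM in WT. The most abundant of them, Cd5, averaged 545 ± 91.0 CPM in the libraries labelled Srsf1-cKO and 648 ± 103 CPM in WT (edgeR adjusted p = 0.324). Of the 8, edgeR called 1, where 18.4% of all tested genes were called. It was Cd3g, higher at 204 ± 35.7 CPM in the libraries labelled Srsf1-cKO, against 124 ± 35.3 CPM in WT (log2 fold change 0.72, edgeR adjusted p = 0.0452). Cd28 was not called but lay below WT with no overlap, at 253 ± 30.9 CPM against 336 ± 46.5 CPM (edgeR adjusted p = 0.0841).

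A pair of promoters is shown because their genes changed in opposite directions. Each sequence is the stretch of 250 bases before the annotated gene start, plus strand, from RefSeq on build GRCm38.p6. Dusp5 is at chr19:53528895-53529144 and Dusp6 at chr10:99262981-99263230. Capitals mark every match, on either strand, to the motifs searched.
Dusp5: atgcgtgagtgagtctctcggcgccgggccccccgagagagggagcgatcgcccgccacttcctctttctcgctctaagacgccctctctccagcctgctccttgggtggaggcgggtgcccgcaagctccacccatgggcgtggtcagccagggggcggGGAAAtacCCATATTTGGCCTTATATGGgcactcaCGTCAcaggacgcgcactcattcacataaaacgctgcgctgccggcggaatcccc
Dusp6: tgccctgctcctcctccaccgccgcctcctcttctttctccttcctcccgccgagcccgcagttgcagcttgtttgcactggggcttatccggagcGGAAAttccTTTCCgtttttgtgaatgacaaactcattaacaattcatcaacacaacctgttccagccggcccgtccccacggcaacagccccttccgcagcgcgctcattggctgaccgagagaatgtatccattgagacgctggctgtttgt
The search covered the full cAMP response element TGACGTCA and its short site TGACG (which the full element contains), the AP-1 site TGANTCA, the NFAT core GGAAA, the EGR sites GCGGGGGCG and GCGTGGGCG, and the CArG box, the core of the element bound by serum response factor. Dusp5 had 2 CArG boxes next to each other, the first base of each 82 and 72 bases before the start, 1 short site of the cAMP response element and 1 NFAT core. Dusp6 had 2 NFAT cores and no match to the other motifs. Windows were found for 8 of the 9 genes, all but Dusp4, so of the lower genes only Dusp5 could be shown. Of 32851 mouse promoter windows, 1.47% held a CArG box, 17.8% the short site TGACG, 55.6% the NFAT core, 6.75% the AP-1 site and 3.06% an EGR site. Among the other members, Dusp1 held the full element TGACGTCA, which 1.55% of windows have, and Dusp2 held an EGR site. Dusp1 also had 3 matches to the short site. Spred1 had 2 NFAT cores and Spry2 had 3, while Dusp10 and Spry1 had no match to any motif. These matches describe the letters only.

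Phosphatase genes moved in both directions: 2 fell and 1 rose. Of the 9 genes edgeR called 3, where 18.4% of all 10454 tested genes were called: 1 was higher (8.9% of all genes) and 2 were lower (9.5% of all genes). In CPM the groups did not overlap for 5 of the 9, against 39.4% of all tested genes: 3 lay above WT (19.9% of all genes) and 2 below (19.5% of all genes). At an unadjusted p under 0.05 there were 6 of the 9, against 34.9% of all genes. With limma on log2(FPKM + 1) 2 of the 8 members tested there were called, against 18.7% of 9617 genes. The median log2 fold change was 0.25 over the 9 genes and 0.01 over all tested genes. Spry2 passed the filter on low counts only through the libraries in which it was higher, so its place in these counts carries no weight of its own. In RNA from a bulk culture, fewer cells that express a gene and less of its RNA per cell cannot be told apart.

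**Figure D1:**
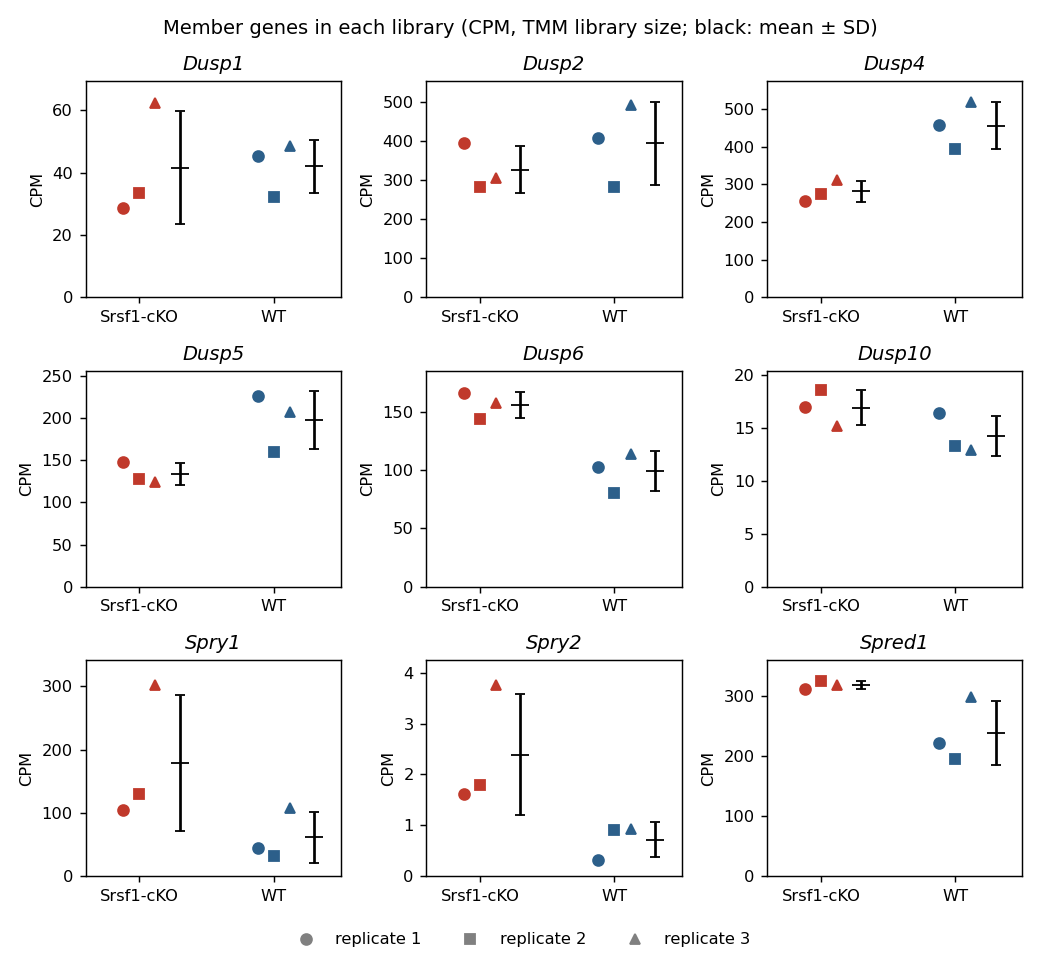
CPM of each member gene (vertical axis, linear, from 0) in the 3 libraries labelled Srsf1-cKO (left, red) and the 3 WT libraries (right, blue); symbols give the replicate number and black bars the mean ± SD. Dusp4 and Dusp5 lie below WT and Dusp6 above WT with no overlap, while the highest Spry1, Spry2 and Dusp1 values are all in the library labelled Srsf1-cKO replicate 3.

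Dusp4 (MKP-2), an inducible nuclear phosphatase of ERK and JNK, fell. It stood at 257, 276 and 312 CPM in the libraries labelled Srsf1-cKO, against 457, 394 and 519 CPM in WT. Each library labelled Srsf1-cKO lay below the lowest WT library. Its log2 fold change was -0.70 (SE 0.14, edgeR adjusted p = 0.0148), a level 0.616 times that of WT. The call was lost without the library labelled Srsf1-cKO replicate 1 (edgeR adjusted p = 0.0511) or 2 (0.0774) and without WT replicate 1 (0.0637), while the log2 fold change without any 1 library stayed between -0.80 and -0.61.

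Dusp5, a nuclear phosphatase that acts on ERK and also anchors it in the nucleus, fell as well. It was at 148, 128 and 124 CPM in the libraries labelled Srsf1-cKO and at 226, 160 and 207 CPM in WT. The highest library labelled Srsf1-cKO was just under the lowest of WT, which was replicate 2. The log2 fold change was -0.57 (SE 0.16, edgeR adjusted p = 0.0371). This was the least firm of the 3 calls: it held without WT replicate 2 (0.0179) and was lost without each of the other 5 libraries, with edgeR adjusted p between 0.0519 and 0.141. It was also lost with library size as the only scaling (edgeR adjusted p = 0.0547) and on FPKM values (limma adjusted p = 0.0563).

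Dusp6 (MKP-3), the cytoplasmic phosphatase that acts on ERK, rose. Its levels were 166, 144 and 158 CPM in the libraries labelled Srsf1-cKO, against 102, 80.8 and 114 CPM in WT. All 3 libraries labelled Srsf1-cKO lay above the highest WT library. The log2 fold change was 0.66 (SE 0.15, edgeR adjusted p = 0.0215), or 1.58-fold. As with Dusp4, the call was lost without the library labelled Srsf1-cKO replicate 1 (edgeR adjusted p = 0.0658) or 2 (0.0708) and without WT replicate 1 (0.0869), with the log2 fold change between 0.52 and 0.75.

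The opposite movement of Dusp6 and Dusp4 can be read within each library, where no scaling between libraries enters. For every 100 Dusp4 counts there were 64.7, 52.3 and 50.7 Dusp6 counts in the libraries labelled Srsf1-cKO, against 22.4, 20.5 and 22.0 in WT. The pair was chosen after its values were seen, so the ratio is given without a test.

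The remaining phosphatases did not pass. Dusp2 (PAC-1), a nuclear phosphatase abundant in activated lymphocytes, was at 394, 281 and 305 CPM in the libraries labelled Srsf1-cKO, against 408, 282 and 493 CPM in WT. The groups overlapped, and the WT libraries spread 1.75-fold from lowest to highest. Its 95% confidence interval ran from -0.75 to 0.21 on the log2 scale (edgeR adjusted p = 0.392).

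Dusp1 (MKP-1), an early response phosphatase best known for p38 and JNK, was at 28.7, 33.6 and 62.3 CPM in the libraries labelled Srsf1-cKO and at 45.2, 32.3 and 48.6 CPM in WT. Replicate 3 of the libraries labelled Srsf1-cKO was above every WT library and replicate 1 below every one. The log2 fold change was -0.01 (95% confidence interval -0.67 to 0.65, edgeR adjusted p = 0.979), and its sign turned under several settings. It was -0.43 without the library labelled Srsf1-cKO replicate 3 and 0.19 without replicate 1. An annotation of another build (GENCODE M21, GRCm38) places 4 further genes over Dusp1, among them Ergic1 on the other strand, and 1 opposite-strand gene over each of Dusp5, Dusp10 and Spry1. Reads of such pairs may be shared, because the sources used here do not say whether counting used the strand.

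Dusp10 (MKP-5), which acts on p38 and JNK, had the lowest FPKM of the 6 phosphatases. Its 17.0, 18.5 and 15.2 CPM in the libraries labelled Srsf1-cKO overlapped the 16.4, 13.3 and 12.9 CPM in WT. The 95% confidence interval of its log2 fold change was -0.16 to 0.66 (edgeR adjusted p = 0.362).

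The Sprouty and Spred members Spry1, Spry2 and Spred1 had positive log2 fold changes that did not pass the threshold. Spry1, an inhibitor of Ras to ERK signalling that is induced in activated T cells, was at 105, 130 and 302 CPM in the libraries labelled Srsf1-cKO, against 44.4, 32.8 and 108 CPM in WT. The library labelled Srsf1-cKO replicate 3 was the highest of all 6, and WT replicate 3 lay just above the lowest library labelled Srsf1-cKO. The log2 fold change was 1.54 (SE 0.50, edgeR adjusted p = 0.0607). Its size depended on single libraries: it was 0.93 without the library labelled Srsf1-cKO replicate 3 (edgeR adjusted p = 0.192) and 2.19 without WT replicate 3 (0.00971). It also passed without the library labelled Srsf1-cKO replicate 1 (edgeR adjusted p = 0.0493), with limma-voom (adjusted p = 0.0489) and with no filter on low counts (edgeR adjusted p = 0.0182).

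Spry2, a related inhibitor, was near the limit of detection, with 15, 16 and 40 counts in the libraries labelled Srsf1-cKO and 3, 7 and 7 counts in WT. In CPM these were 1.62, 1.79 and 3.75 in the libraries labelled Srsf1-cKO against 0.332, 0.911 and 0.924 in WT, and the groups did not overlap. Its log2 fold change of 1.75 (SE 0.53) stood at an edgeR adjusted p of 0.0501. It was 1.25 without the library labelled Srsf1-cKO replicate 3, and it passed with library size as the only scaling (edgeR adjusted p = 0.0442) and with no filter (0.0417).

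Spred1, which recruits the Ras inhibitor neurofibromin to the membrane, was tightly grouped at 313, 326 and 318 CPM in the libraries labelled Srsf1-cKO, against 222, 196 and 298 CPM in WT. The groups did not overlap. The coefficient of variation was 2.11% in the libraries labelled Srsf1-cKO and 22.2% in WT, where replicate 3 was high. The log2 fold change was 0.42 (SE 0.16, edgeR adjusted p = 0.103), and 0.59 without WT replicate 3 (edgeR adjusted p = 0.0164).

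**Figure D2:**
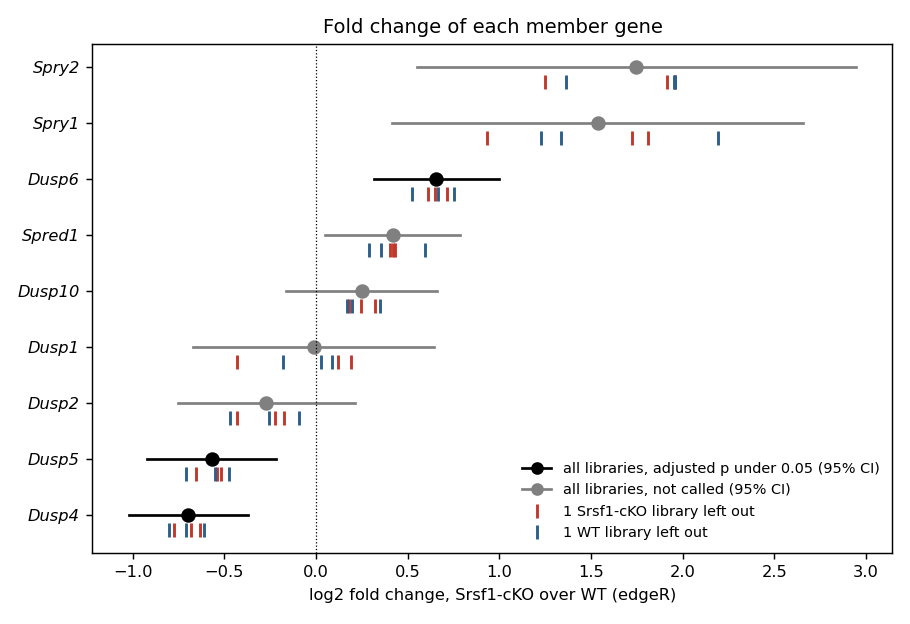
Log2 fold change of each member gene, libraries labelled Srsf1-cKO over WT (horizontal axis), with its 95% confidence interval; black marks the 3 called genes, and ticks below each line show the value with 1 library left out (red, a library labelled Srsf1-cKO; blue, a WT library). Ticks of Dusp4, Dusp5 and Dusp6 stay on 1 side of 0, those of Dusp1 fall on both sides, and those of Spry1 run from 0.93 to 2.19.

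Replicate spread differed widely between the members. The coefficient of variation of Spry1 was 59.9% in the libraries labelled Srsf1-cKO and 65.6% in WT, and that of Spry2 was 49.7% in the libraries labelled Srsf1-cKO and 46.8% in WT. Dusp6 varied by 7.11% in the libraries labelled Srsf1-cKO and 17.1% in WT, and Dusp4 by 9.91% in the libraries labelled Srsf1-cKO and 13.7% in WT. Dusp10 varied about as little as Dusp4, by 9.83% in the libraries labelled Srsf1-cKO and 13.3% in WT. The others lay between, or differed between the groups: Dusp1 varied by 43.7% in the libraries labelled Srsf1-cKO and 20.5% in WT, and Dusp2 by 18.3% in the libraries labelled Srsf1-cKO and 26.95% in WT. Dusp1, Spry1 and Spry2 were each highest in the library labelled Srsf1-cKO replicate 3, whereas Dusp5 was lowest there.

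Levels can be set between genes on the FPKM scale, which divides by transcript length. Dusp2 was the most abundant member in both groups, at 169 ± 28.3 FPKM in the libraries labelled Srsf1-cKO and 190 ± 49.4 FPKM in WT (SD, n = 3 each). Dusp5 followed at 96.7 ± 8.08 FPKM in the libraries labelled Srsf1-cKO and 134 ± 19.2 FPKM in WT. Dusp4 came next, at 86.9 ± 9.05 FPKM in the libraries labelled Srsf1-cKO and 133 ± 16.8 FPKM in WT. The ranges of Dusp5 and Dusp4 overlapped in each group, and those of Dusp2 and Dusp5 overlapped in WT.

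The middle of the order held Spry1, Dusp6 and Spred1. In the libraries labelled Srsf1-cKO Spry1 averaged 58.0 ± 34.6 FPKM, Dusp6 44.5 ± 2.31 FPKM and Spred1 39.3 ± 1.56 FPKM. The order in WT was Spred1 at 27.004 ± 6.09 FPKM, Dusp6 at 26.3 ± 4.22 FPKM and Spry1 at 18.6 ± 12.4 FPKM. The range of Spry1 in the libraries labelled Srsf1-cKO, 33.4 to 97.5 FPKM, overlapped those of Dusp5, Dusp4, Dusp6 and Spred1, while Dusp6 lay above Spred1. Neighbouring ranges among these genes overlapped in WT. Dusp1 held rank 7 in both groups (17.5 ± 7.63 FPKM in the libraries labelled Srsf1-cKO and 16.3 ± 3.08 FPKM in WT), followed by Dusp10 (4.95 ± 0.546 FPKM in the libraries labelled Srsf1-cKO and 3.91 ± 0.378 FPKM in WT) and Spry2 (0.929 ± 0.446 FPKM in the libraries labelled Srsf1-cKO and 0.255 ± 0.153 FPKM in WT). The last 3 did not overlap one another in either group, while Dusp1 overlapped Spry1 in WT.

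**Figure D3:**
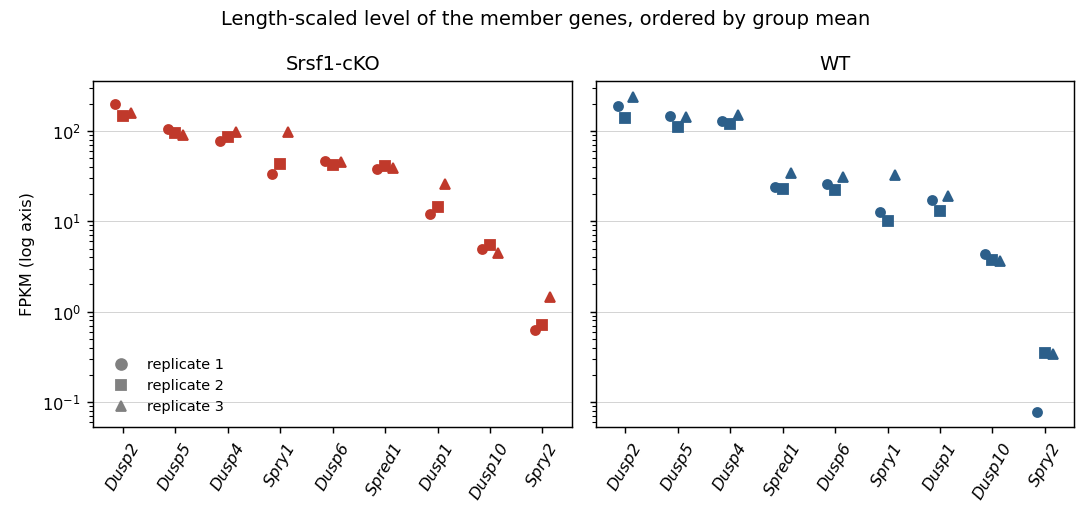
FPKM of the member genes (vertical log axis) in each library labelled Srsf1-cKO (left) and each WT library (right), ordered from high to low group mean; symbols give the replicate number. Dusp2, Dusp5 and Dusp4 lead in both groups, and Spry1 stands at rank 4 in the libraries labelled Srsf1-cKO and rank 6 in WT, with wide spread.

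By the distance between log2 CPM profiles, centred on each gene's mean over the 6 libraries, the genes most like Dusp6 were Snhg4, a long noncoding host gene of a small nucleolar RNA (distance 0.173), Taf13, a subunit of the general factor TFIID (0.223), and Wdr59, a subunit of a nutrient-sensing complex upstream of mTOR (0.231). The median distance of all tested genes to Dusp6 was 1.13. Spred1 was the member closest to Dusp6, at 0.386. Closest to Dusp4 were Upf3b, a factor of nonsense-mediated decay (0.119), Hdac8, a histone deacetylase (0.132), and Tbc1d10b, a Rab GTPase regulator (0.142), while Dusp5 was the closest member at 0.480. Of these 6 genes edgeR called Wdr59 higher and Upf3b and Tbc1d10b lower, where 18.4% of all tested genes were called. They were picked for profiles like those of called genes, so these calls carry no weight of their own.

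Other genes of these families were called about as often as all tested genes. A list of 13 further MAP kinase phosphatase, Sprouty and Spred genes had 10 tested genes, 1 higher, 1 lower and 8 not called, with a median log2 fold change of 0.01, where 18.4% of all tested genes were called. Dusp3, a small phosphatase of ERK and JNK, rose to 4.54, 10.04 and 11.6 CPM in the libraries labelled Srsf1-cKO, against 1.99, 1.43 and 3.96 CPM in WT (log2 fold change 1.83, SE 0.46, edgeR adjusted p = 0.0273). The groups did not overlap. Spred3, a relative of Spred1, fell to 1.94, 1.12 and 1.502 CPM, against 4.53, 2.47 and 5.81 CPM in WT (log2 fold change -1.48, SE 0.40, edgeR adjusted p = 0.0361). The most abundant of the list, Dusp16 (MKP-7), a phosphatase of JNK and p38, averaged 58.4 ± 7.42 CPM in the libraries labelled Srsf1-cKO and 66.0 ± 9.06 CPM in WT (SD, n = 3 each; edgeR adjusted p = 0.462).

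In the Ras to ERK cascade 1 of 31 tested genes rose and 2 fell (median log2 fold change -0.15), against 8.9% of all tested genes higher and 9.5% lower. The Raf kinase gene Araf rose to 35.7 ± 3.17 CPM in the libraries labelled Srsf1-cKO, against 22.6 ± 2.02 CPM in WT (edgeR adjusted p = 0.0227). Rps6ka1, the ERK-activated kinase RSK1, fell to 225 ± 18.2 CPM, against 329 ± 7.83 CPM in WT (edgeR adjusted p = 0.0173). Rasal3, a Ras GTPase-activating protein of blood cells, fell to 54.4 ± 3.02 CPM, against 82.3 ± 10.4 CPM in WT (edgeR adjusted p = 0.0232).

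Of 24 tested genes of the JNK and p38 cascades 2 rose and 1 fell (median log2 fold change -0.12), beside the same 8.9% higher and 9.5% lower over all genes. Both that rose are kinases at the top of these cascades: Map3k5 (ASK1) at 70.2 ± 5.45 CPM in the libraries labelled Srsf1-cKO and 37.9 ± 10.8 CPM in WT (edgeR adjusted p = 0.0202), and Map3k4 at 39.9 ± 3.73 CPM in the libraries labelled Srsf1-cKO and 25.3 ± 5.49 CPM in WT (0.0416). Gadd45b, a stress-induced activator of Map3k4, fell to 158 ± 17.6 CPM, against 267 ± 73.0 CPM in WT (edgeR adjusted p = 0.0314). The p38-activated kinase gene Mapkapk2 was the most abundant and averaged 433 ± 109 CPM in the libraries labelled Srsf1-cKO and 432 ± 96.4 CPM in WT (edgeR adjusted p = 0.989).

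Early response and ERK-responsive transcription genes changed in both directions, with 3 of 26 higher (8.9% of all tested genes) and 5 lower (9.5% of all tested genes), and a median log2 fold change of -0.29. By adjusted p the first 4 were Nr4a1, an orphan nuclear receptor gene, Fosb of the AP-1 family, the stress factor gene Atf3 and the AP-1 gene Fosl2. Their log2 fold changes were -1.47 for Nr4a1, 1.12 for Fosb, -0.89 for Atf3 and -0.94 for Fosl2 (edgeR adjusted p between 0.00912 and 0.0250). Fosb rose to 81.9 ± 5.24 CPM in the libraries labelled Srsf1-cKO, against 37.7 ± 11.2 CPM in WT. Atf3 fell to 64.0 ± 9.71 CPM in the libraries labelled Srsf1-cKO, against 118 ± 23.7 CPM in WT. Myc, the most abundant, did not pass, at 1027 ± 223 CPM in the libraries labelled Srsf1-cKO and 1301 ± 229 CPM in WT (edgeR adjusted p = 0.225).

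Of the 12 called genes named from these 4 lists, edgeR called 8, 1 and 6 without the library labelled Srsf1-cKO replicate 1, 2 and 3, and 0, 9 and 11 without WT replicate 1, 2 and 3. The 0 without WT replicate 1, where 195 of all 10606 tested genes were called, compares with 12 of 12 at an unadjusted p under 0.05. All 12 kept their direction in each of these 6 fits. They were named because they were called in these same data, with groups that did not overlap. Their direction and unadjusted p in these fits were therefore largely set in advance. The highest edgeR adjusted p of a lost call was 0.156.

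**Figure D4:**
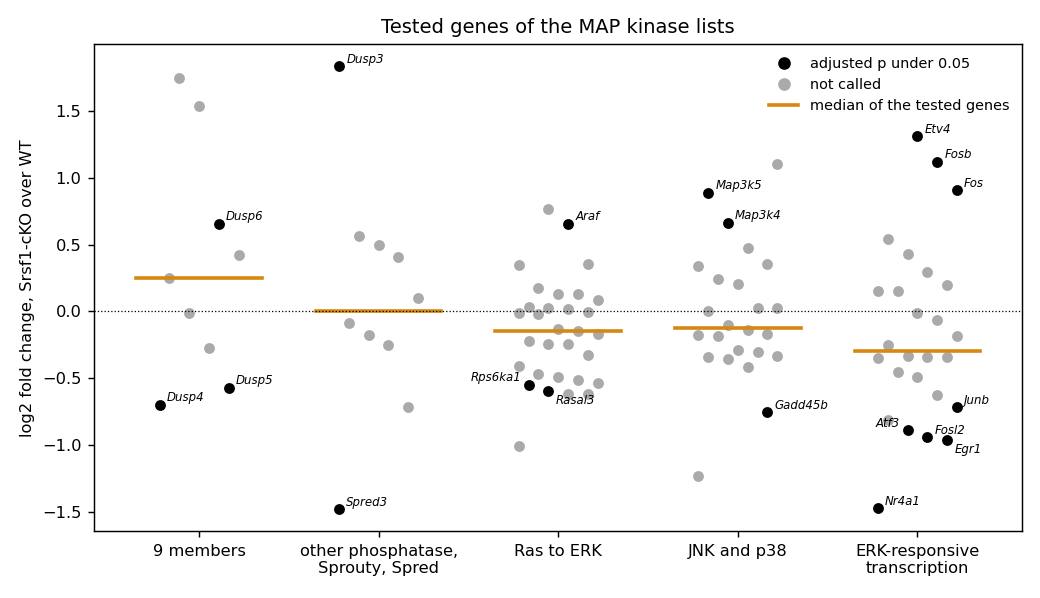
Log2 fold change, libraries labelled Srsf1-cKO over WT (vertical axis), of every tested gene in the 9 members and in 4 lists of related genes; black and named points have an edgeR adjusted p under 0.05, and orange bars are medians. Each list holds called genes in both directions, and the medians lie between -0.29 and 0.25.

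Markers of other cell types were partly higher in the same libraries as the changes above. The calls below stand beside 18.4% of all tested genes called and 8.9% called higher. Each list had few tested genes, so its count of calls says little by itself. The 6 B cell markers summed to between 8.26 and 21.4 CPM in the libraries labelled Srsf1-cKO and between 1.19 and 6.89 CPM in WT, with 1 of 4 tested genes called (Cd79a). Ms4a1, the most abundant of them, averaged 6.27 ± 3.97 CPM in the libraries labelled Srsf1-cKO and 1.11 ± 1.18 CPM in WT (edgeR adjusted p = 0.0545). The 7 myeloid markers with a row summed to between 10.4 and 25.3 CPM in the libraries labelled Srsf1-cKO and between 3.04 and 7.30 CPM in WT, with 1 of 3 tested genes called (Lyz2). The call of Lyz2 was lost with DESeq2 (adjusted p = 0.108), limma-voom (0.0534) and the replicate block (edgeR adjusted p = 0.0501), and the WT counts of Lyz2, Cd79a and Ms4a1 alone would not have passed the filter on low counts. Of the 6 dendritic cell markers 2 of 3 tested genes were called (H2-Aa and Cd74), with sums between 97.5 and 122 CPM in the libraries labelled Srsf1-cKO and between 52.5 and 77.9 CPM in WT. Cd74 made up most of these sums, and the third tested gene, H2-Ab1, had a negative log2 fold change (-0.29, edgeR adjusted p = 0.693), with 12.3 ± 4.23 CPM in the libraries labelled Srsf1-cKO and 15.01 ± 9.93 CPM in WT. Flt3, under the filter, was at 0.240 ± 0.0359 CPM in the libraries labelled Srsf1-cKO and 0.366 ± 0.0946 CPM in WT. Itgax, also under the filter, had 5, 7 and 13 counts in the libraries labelled Srsf1-cKO and 0 in each WT library. Siglech of dendritic cells and Ncr1 and Klra8 of NK cells had 0 counts in all 6 libraries. The other NK markers were detected at low levels. Tyrobp averaged 0.440 CPM in the libraries labelled Srsf1-cKO and 0.211 CPM in WT, and Klrb1c 0.131 and 0.0873 CPM. The CD8 marker Cd8a averaged 0.517 CPM in the libraries labelled Srsf1-cKO and 0.416 CPM in WT. The other CD8 marker, Cd8b1, lay at 20.0 ± 3.14 CPM in the libraries labelled Srsf1-cKO and 30.4 ± 10.16 CPM in WT, with no overlap (log2 fold change -0.60, edgeR adjusted p = 0.115). With the T cell marker Cd3g, 5 markers were called, and edgeR called 3, 0 and 2 of them without the library labelled Srsf1-cKO replicate 1, 2 and 3, and 0, 4 and 4 without WT replicate 1, 2 and 3. At an unadjusted p under 0.05 there were 5 where the library labelled Srsf1-cKO replicate 2 was left out and 5 where WT replicate 1 was. These 5 were counted because they were called in the same data, so this was largely set in advance. Lyz2 was highest in the library labelled Srsf1-cKO replicate 3, which also held the highest Spry1, Spry2 and Dusp1, at 13.99 CPM against 3.13 and 4.799 CPM in the other libraries with that label. The called T cell marker Cd3g was highest there too. The other called markers were lowest there among the libraries with that label. Cd74 was at 74.8 CPM against 84.6 and 85.7 CPM, H2-Aa at 11.5 against 17.0 and 25.0 CPM, and Cd79a at 1.88 against 3.03 and 2.01 CPM. Markers without a call went both ways there, again among the libraries with that label. The remaining T cell markers were all highest there, as were Itgam, Cd14, Fcgr3, Itgax and Flt3. The remaining B cell markers were all lowest there, as were Csf1r, Emr1 and H2-Ab1, and Cd68 lay between. The part of these cells in the levels of the 9 genes was not tested.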

How the data were processed

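The mRNA of 6 libraries was read from one end over 75 bp after a stranded mRNA kit, per the series' design text, which gives 3 mice for each genotype. The authors deposited whole-number read counts per gene without normalization, and a table of FPKM values, a unit read from the values (not whole, and giving plausible lengths against the counts). STAR, Cufflinks and build mm9 come from the submitters' processing notes, and STAR 2.4.2a from the header of a deposited alignment report, from which read numbers were taken. The sources used here do not give the annotation, the counting program or its strand setting. Dates stood in place of 27 gene names and were kept.

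Counts were tested with edgeR 4.0.16 (R 4.3.3): filterByExpr (minimum count 10), TMM, quasi-likelihood test, two-sided, genotype as the only term, Benjamini-Hochberg over the 10454 tested genes, called at an adjusted p under 0.05. SE is the log2 fold change over the root of the F statistic. CPM use TMM library sizes. The test was tried on simulated data with far fewer changed genes than were called here, so that trial gives no error rate for these data. An exact permutation test of 3 against 3 libraries cannot go below 0.1 and was not used. Replicate pairs differed by more than sampling noise (chi-square per degree of freedom 6.53 or more). Intervals rest on the 3 libraries per group and on a variance estimate that edgeR shares across the tested genes. Results were recomputed with library size alone, upper-quartile or RLE scaling, with no filter or a mean CPM of at least 5, with limma-voom (limma 3.58.1), DESeq2 1.42.0, each library omitted in turn, a block for the replicate number, adjusted p under 0.1 and 0.01, and limma with trend on log2(FPKM + 1) or log2(FPKM + 0.1). These log scales understate folds where FPKM is low.

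The members, lists, tests and named-gene rule were chosen with earlier results of these data known. Named are the members, Srsf1, up to 4 called genes with the smallest adjusted p and the most abundant gene (by mean CPM) of each list, and the 3 genes nearest to the called member with the smallest adjusted p in each direction. A gene that this rule names is not reported here. Motif searches used RefSeq promoter windows of GRCm38.p6, with no comparison of coordinates to mm9.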

Additional observations from a re-analysis of the deposited data

How the results depend on the processing

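Dusp4 and Dusp6 kept their direction in all alternatives, and their call in all except those that left out the libraries named above and the adjusted p under 0.01. Dusp5 kept its direction in all 17 fits and its call in 8. Spry2 was under the filter in 3 fits and has no value there. The number of members called was 5 with no filter on low counts, 5 at an adjusted p under 0.1 and 0 at an adjusted p under 0.01 in edgeR (6 at an unadjusted p under 0.05 in the same fit, against 34.9% of all genes). With no filter 2172 of 15114 tested genes were called. DESeq2 gave Dusp4 (adjusted p = 0.000398) and Dusp6 (0.00328) values under 0.01, and Dusp5 0.0121. Leaving out 1 library gave between 0 and 4 called members. It was 0 without WT replicate 1, where 195 of all 10606 tested genes were called. It was also 0 without the library labelled Srsf1-cKO replicate 2, where 234 of 10642 were called. At an unadjusted p under 0.05 there were 4 and 5 members in these fits. The share over all genes is not given for them and was 34.9% with all libraries. These counts therefore do not show that members kept their changes more often than other genes. It was 1 without the library labelled Srsf1-cKO replicate 1, where 1121 of 10618 tested genes were called. The count over all genes, 1923, ranged from 195 to 1989 when 1 library was left out, and was 1146 for FPKM with no filter, 2972 at an adjusted p under 0.1 and 279 at an adjusted p under 0.01. It was 1121, 234 and 1376 without the library labelled Srsf1-cKO replicate 1, 2 and 3, and 195, 1989 and 1978 without WT replicate 1, 2 and 3. The cause was not tested.

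The log2 fold change of Dusp1 turned positive with upper-quartile scaling (0.0047), with library size only (0.10), on log2(FPKM + 1) with or without a filter (0.040) and on log2(FPKM + 0.1) (0.039), and ran from -0.43 to 0.19 when 1 library was left out. That of Mapkapk2 turned negative with RLE scaling (-0.0043), no filter (-0.0079), DESeq2 (-0.0023) and the replicate block (-0.00045), and ran from -0.22 to 0.18 when 1 library was left out. That of Srsf1 ran from -0.0047 (without WT replicate 2) to 0.12 when 1 library was left out. None of these was called, and the cause was not tested. Library size as the only scaling moved the median over all genes to a log2 fold change of 0.11, against 0.01, and limma on log2(FPKM + 1) moved it to 0.10.

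With the replicate number as a block 5 members were called, Dusp4, Dusp5, Dusp6, Spry1 and Spry2 (edgeR adjusted p 0.00198 for Spry1), and 2270 genes in all. The numbers do not show that samples are paired: the deviations of same-numbered libraries from their group means correlated at 0.22, 0.01 and 0.27, and not every library correlated best with its own number. At this depth Spry2 rests on at most 40 counts a library.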
